A study of Mus musculus with 2 samples.

Results

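The 8 genes described here handle arginine, itaconate and tryptophan in immune cells. They are Nos2 (ENSMUSG00000020826), Arg1 (ENSMUSG00000019987), Arg2 (ENSMUSG00000021125), Slc7a2 (ENSMUSG00000031596), Ass1 (ENSMUSG00000076441), Acod1 (ENSMUSG00000022126), Ido1 (ENSMUSG00000031551) and Il4i1 (ENSMUSG00000074141). They were taken by symbol from the 56941 features of the count tables, where each had 1 row. They were grouped by their biochemistry, with earlier results of these data known. Their counts were followed through macrophage states, granulocytes and dendritic cells of mouse colorectal cancer liver metastasis (CRLM).

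Both groups came from C57BL/6 mice of 6 to 8 weeks that received MC38-LM3b cells in the spleen. MC38-LM3b is a derivative of the MC38 colorectal cancer line selected for growth in the liver. The tumor cells carried a scrambled hairpin, shScramble (Ctrl), or a hairpin against SLAMF3, shSLAMF3 (KD). The mice and their immune cells carried neither hairpin, and the KD line rests on 1 hairpin. Liver lesions were taken 2 weeks later, CD45+ cells were selected from lesions pooled over 3 mice per group, and each group gave 1 droplet-based single-cell RNA library. With 1 library per group there was no replicate error and no test. Intervals are given at 95% and cover the error of counting alone, so differences between mice, lesions or cell preparations cannot be told apart from differences between groups.

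The libraries held 10416 (Ctrl) and 10943 (KD) cells, of which 9814 and 10185 passed the study's limits on genes, unique molecular identifiers (UMIs, which count RNA molecules) and mitochondrial share, with medians of 5412 and 4989 UMIs per cell. Of the barcodes that passed, 24 occurred in both libraries. Levels are given as CPM, the UMIs of a gene scaled to a common total of all UMIs of the cells named. Over all filtered cells, Ly9, which encodes SLAMF3, stood at 21.0 CPM (Ctrl) and 18.8 CPM (KD). Few tumor-like cells were present, with 12 and 7 Ly9 UMIs in the class of tumor-like or fibroblast-like cells, so the hairpin's effect in its own cells could not be read from these libraries. Macrophages, granulocytes and conventional dendritic cells (cDCs) had at least 1 UMI of all 14, 12 and 13 of their defining markers in both libraries. This says little about the class names, since sums over so many cells also hold free RNA. Macrophages likewise had a UMI of all 12 granulocyte and all 10 T cell markers in both libraries. Markers of other cells moved between the groups. The summed level of 12 granulocyte markers within macrophages was 371 CPM in Ctrl and 2306 CPM in KD, and within cDCs it was 107 and 651 CPM.

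Arginine enters macrophages largely through the cationic amino acid transporter encoded by Slc7a2, and citrulline can be turned back toward arginine by argininosuccinate synthase, encoded by Ass1. Inducible nitric oxide synthase (Nos2) makes nitric oxide and citrulline from arginine, whereas the cytosolic and mitochondrial arginases (Arg1 and Arg2) make ornithine and urea, and the balance between these uses is a classical mark of macrophage activation. Acod1 encodes the mitochondrial enzyme that makes itaconate from cis-aconitate in activated myeloid cells. Ido1 starts tryptophan breakdown along the kynurenine route, and Il4i1 is a secreted oxidase of aromatic amino acids, both known for restraining T cells.

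Promoter sequence was at hand for 3 of the 8 genes, Acod1, Ass1 and Il4i1, in RefSeq on GRCm38.p6, a different build from that of the counts. Acod1 and Ass1 are shown because both were lower in KD macrophages. Each sequence holds the 250 bases before the annotated start on the plus strand, chr14:103046762-103047011 for Acod1 and chr2:31470020-31470269 for Ass1. Capitals mark matches to any of 4 short motifs searched on both strands: a gamma-activated site core (TTCNNNGAA), an interferon-stimulated element core (GAAANNGAA), an NF-kB core (GGNNTTNCC) and a C/EBP core (TTGCNNAA).
Acod1: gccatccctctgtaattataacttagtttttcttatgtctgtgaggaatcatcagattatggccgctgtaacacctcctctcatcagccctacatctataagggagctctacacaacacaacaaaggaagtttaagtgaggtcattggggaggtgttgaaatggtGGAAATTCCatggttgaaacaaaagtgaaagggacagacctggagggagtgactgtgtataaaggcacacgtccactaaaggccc
Ass1: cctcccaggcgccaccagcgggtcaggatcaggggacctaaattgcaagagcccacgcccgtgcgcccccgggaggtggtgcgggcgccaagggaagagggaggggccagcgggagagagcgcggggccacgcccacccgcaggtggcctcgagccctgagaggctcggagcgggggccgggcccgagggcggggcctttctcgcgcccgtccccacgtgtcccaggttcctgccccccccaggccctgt
The Acod1 window held 1 NF-kB core, GGAAATTCC, which began 85 bases before the start, and the Ass1 window held no match. Among 32851 promoter windows of the same length, 13.5% held an NF-kB core, 7.02% a gamma-activated site core, 7.13% an interferon-stimulated element core and 9.56% a C/EBP core. A match in such a window is a description of the letters and no evidence of binding.

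The members fell into different cells before any comparison of the groups. Macrophages held 94.3% of all Arg1 UMIs in Ctrl and 95.4% in KD, and 89.9% and 92.3% of those of Slc7a2. Granulocytes, which are neutrophils by their markers here, held 52.1% and 74.6% of the Acod1 UMIs and 47.2% and 75.0% of the Arg2 UMIs. Ass1 was mostly in macrophages (82.0% and 60.7%), followed by cDCs (7.32% and 18.0%) and T cells (250 of 4206 UMIs in Ctrl and 263 of 2149 in KD). Il4i1 was highest in cDCs, at 25.9 CPM in Ctrl and 32.0 CPM in KD, next to B cells at 20.9 and 20.3 CPM, and the intervals of the 2 classes overlapped in Ctrl and were 27.4 to 37.3 and 15.3 to 26.4 CPM in KD. Ido1 was nearly absent, with 47 UMIs in Ctrl and 14 in KD over all filtered cells. T cells, which are not a source of most of these transcripts, give one estimate of the background from free RNA: 4.31 and 1.38 CPM for Nos2, 3.01 and 5.78 for Arg1, 4.18 and 8.26 for Arg2, 1.46 and 1.65 for Slc7a2, 15.7 and 21.4 for Acod1, and 1.26 and 2.48 for Il4i1, in Ctrl and KD. B cells, whose median depth (2599 and 2598 UMIs) was nearer to that of granulocytes, had 19.7 and 2.95 CPM for Nos2, 11.6 and 30.6 for Arg1, and 19.7 and 30.6 for Acod1.

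**Figure D1:**
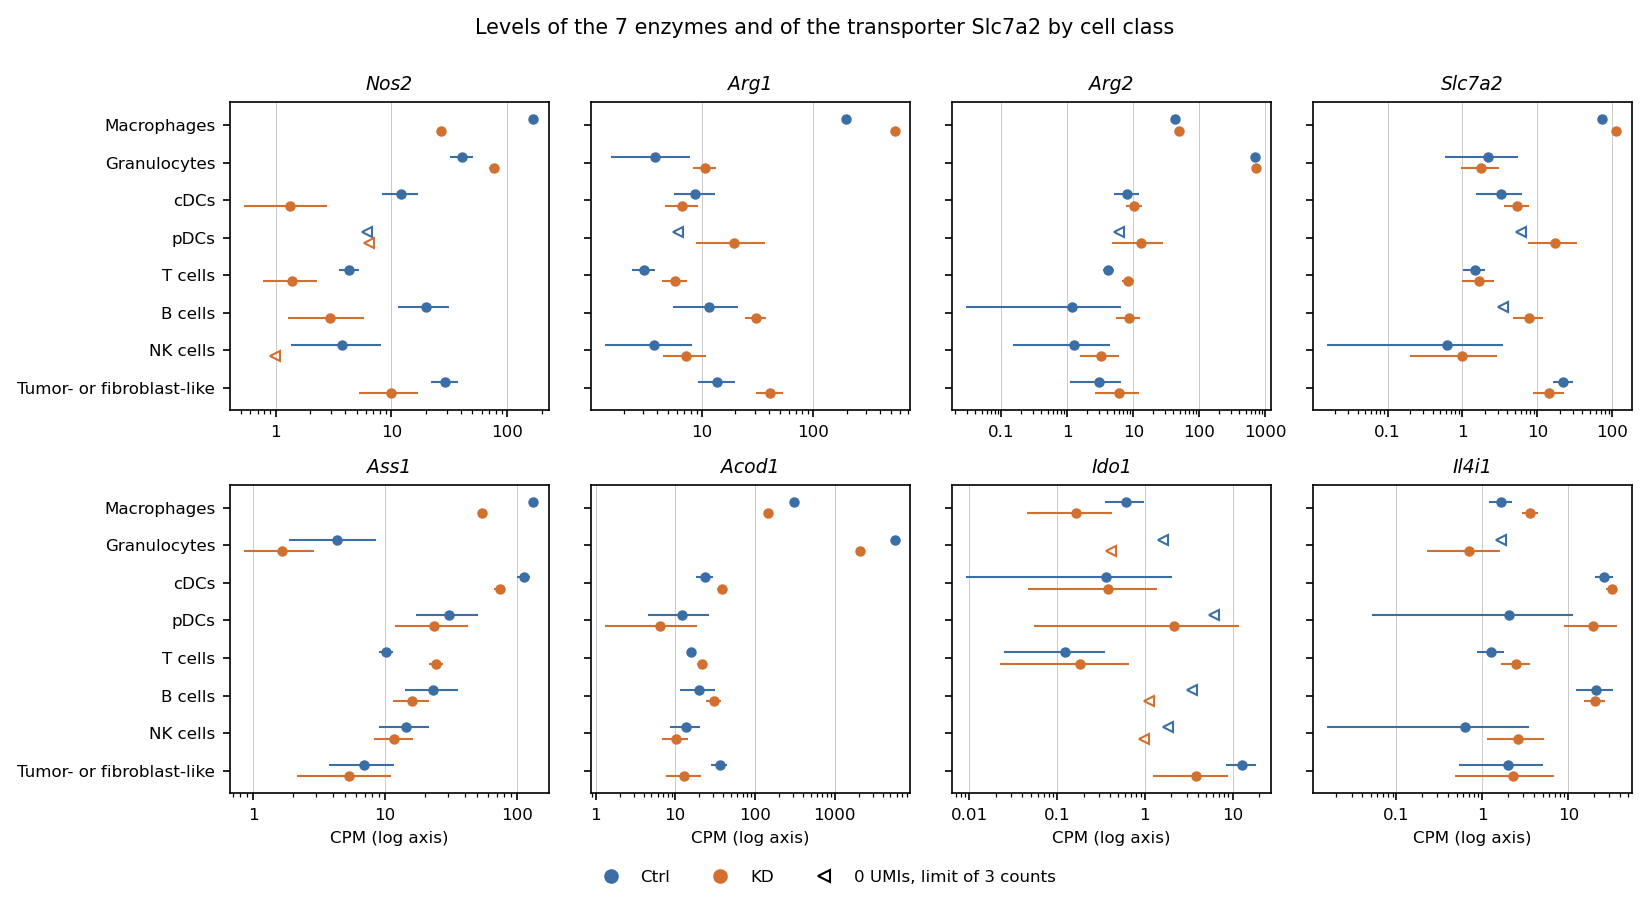
Level of each gene (CPM, log axis) in 8 cell classes of the Ctrl (blue) and KD (orange) libraries, with 95% Poisson intervals. Open triangles stand for 0 UMIs and mark the limit of 3 counts. Arg1 and Slc7a2 lie highest in macrophages, Arg2 and Acod1 in granulocytes, Il4i1 in cDCs and Ido1 in tumor-like or fibroblast-like cells.

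In macrophages, 7 of the 8 genes had at least 50 UMIs over both libraries and were compared. Nos2, Ass1 and Acod1 were at least 2-fold lower in KD, and Arg1 and Il4i1, the latter near its background level, at least 2-fold higher, while Slc7a2 and Arg2 lay within 2-fold. Over all 13368 genes with that count, 2.87% were at least 2-fold lower and 2.6% at least 2-fold higher. The median log2 ratio of KD over Ctrl was 0.16 for the 7 members and -0.03 for all genes. The Ctrl class held 4115 cells and the KD class 3088, at medians of 5600 and 7430 UMIs per cell.

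Nos2 had 4397 UMIs in Ctrl macrophages, or 167 CPM, and 650 UMIs in KD macrophages, or 26.9 CPM. This was 6.22-fold lower in KD, a log2 ratio of -2.64 (-2.76 to -2.52). A Nos2 UMI was found in 26.2% of Ctrl and 6.70% of KD macrophages. After each cell was thinned to 1500 UMIs, to set cells of different depth on one footing, these shares were 14.2% (13.1 to 15.4) and 2.34% (1.83 to 2.96), against 0.483% and 0.134% in T cells. In Ctrl, expression was concentrated in few cells, since the 10% of macrophages with most Nos2 held 75.1% of its UMIs. In KD that 10% held 100% of them, which had to be so with a Nos2 UMI in only 6.70% of cells. The highest single cell held 30 Nos2 UMIs in either library.

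Ass1 accounted for 3447 UMIs in Ctrl and 1304 in KD macrophages. Its level was 131 CPM in Ctrl and 53.9 CPM in KD, 2.43-fold lower in KD, with a log2 ratio of -1.28 (-1.37 to -1.19). Thinned cells with an Ass1 UMI made up 14.9% of Ctrl and 7.33% of KD macrophages. T cells had the other direction, with Ass1 at 10.2 CPM in Ctrl and 24.1 CPM in KD (log2 ratio 1.25).

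Slc7a2, the arginine importer, had 1914 UMIs and 72.7 CPM in Ctrl macrophages, and 2750 UMIs and 114 CPM in KD. The log2 ratio was 0.64 (0.56 to 0.73), above 0 beyond counting error but under 2-fold. Its detection in thinned cells was 6.01% in Ctrl and 9.24% in KD, against 0.103% and 0.401% in T cells. Thus the transporter and the 2 arginine-handling enzymes Nos2 and Ass1 differed in opposite directions in the same class.

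Arg1 was the most abundant member in KD macrophages by UMIs, with 5180 UMIs (197 CPM) in Ctrl and 12984 (537 CPM) in KD. The level was 2.73-fold higher in KD, with a log2 ratio of 1.45 (1.40 to 1.49). Detection in thinned cells was 10.9% in Ctrl and 23.1% (21.6 to 24.7) in KD. Single macrophages reached 70 Arg1 UMIs in Ctrl and 158 in KD. When the KD states, described further on, were weighted to the state composition of Ctrl, the log2 ratio was 0.95, under 2-fold, and it was 1.09 without the sub-clusters that came to over 90% from 1 library.

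Arg2, the mitochondrial arginase, stood at 43.2 CPM in Ctrl and 48.4 CPM in KD macrophages, from 1138 and 1170 UMIs (log2 ratio 0.16, 0.04 to 0.28). Its sign was not stable. The log2 ratio was -0.08 without 3 macrophage sub-clusters led by neutrophil, T and NK cell or B cell genes, and -0.09 without likely doublets. The sub-cluster led by Retnlg and S100a9, neutrophil genes, held 4.75% of the Arg2 UMIs of Ctrl macrophages and 22.0% of those of KD macrophages.

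Acod1 showed 8189 UMIs in Ctrl and 3565 in KD macrophages, at levels of 311 and 147 CPM. This was 2.11-fold lower in KD, a log2 ratio of -1.08 (-1.13 to -1.02). Thinned detection was 26.6% in Ctrl and 14.1% in KD, against 1.34% and 1.94% in T cells. The difference was larger, -1.31, without the 3 sub-clusters led by genes of other cells, and under 2-fold without sub-clusters that came to over 90% from 1 library (-0.89) and by the mean of per-cell CPM (-0.99). The granulocyte markers given above, which were higher in KD macrophages, moved in the other direction from Acod1.

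The tryptophan enzymes were sparse in macrophages. Il4i1 had 43 UMIs (1.63 CPM) in Ctrl and 87 UMIs (3.596 CPM) in KD, a log2 ratio of 1.14 (0.60 to 1.70), and detection in thinned cells was 0.287% (0.144 to 0.514) and 0.407% (0.211 to 0.711), close to 0.241% and 0.267% in T cells. Il4i1 in T cells differed by nearly as much (log2 ratio 0.98), so the macrophage value is not read apart from background. It was under 2-fold by the mean of per-cell CPM (0.87). Ido1 had 16 UMIs in Ctrl and 4 in KD macrophages and was not compared.

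**Figure D2:**
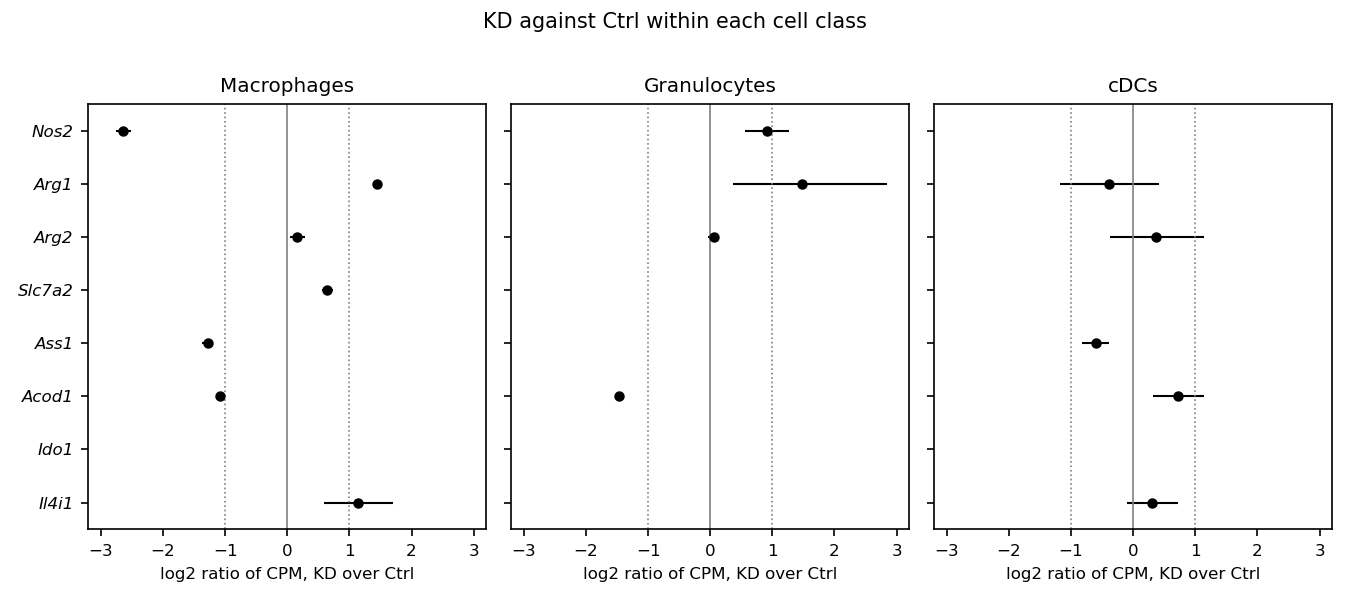
Log2 ratio of CPM, KD over Ctrl, for members with at least 50 UMIs in macrophages, granulocytes and cDCs, with 95% intervals for counting error. Dotted lines mark 2-fold. Nos2 lies at -2.64 in macrophages and at 0.91 in granulocytes, and Acod1 at -1.08, -1.46 and 0.72 in the 3 classes.

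The macrophages were divided into states with all 8 genes and their pathway genes left out of the clustering. Ctrl macrophages were mostly an unnamed cluster led by Hspa1a and Ly6i (29.5% of Ctrl and 20.7% of KD macrophages), which carried 5 of 8 interferon markers though none led it, and a shallow unnamed cluster led by Cadm1 and 4933406J09Rik (23.4% and 10.9%). KD macrophages held more C1q-high TAM-like cells (9.89% and 19.3%) and more Ltc4s+ Pf4+ macrophage-like cells (0.389% and 13.5%), where TAM stands for tumor-associated macrophage. Inflammatory TAM-like cells (Il1a, Cxcl2, Tnf) took 12.7% and 10.7%, cycling cells 11.5% and 3.63%, and Vcan+ monocyte-like cells 9.84% and 14.6%. In 6 of these states both libraries had at least 50 cells. The borders between states were not stable. Another random seed of the cluster search on the same graph put 97.01% of the C1q-high and 64.9% of the Hspa1a+ Ly6i+ cells into 1 cluster and left 76.4% of the inflammatory cells together, in a cluster of 1073 Ctrl and 238 KD cells. Of 45 ratios of a member in a macrophage or granulocyte state, 40 kept their sign under that seed and 37 stayed on the same side of 2-fold. The C1q-high and Hspa1a+ Ly6i+ states were both matched to that 1 joined cluster, so its 6 values count for each of them.

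Nos2 was highest in the inflammatory TAM-like state of Ctrl, at 447 CPM (425 to 470.2), in 30.1% of thinned cells. The same state in KD had 43.4 CPM (36.1 to 51.9), in 2.43% of thinned cells, a log2 ratio of -3.36 (-3.64 to -3.10), which was -2.03 under the other seed. Levels in Ctrl and KD were 168 and 36.4 CPM for C1q-high TAM-like cells, and for the Hspa1a+ Ly6i+ cluster they were 157 and 25.3 CPM, for the Cadm1+ 4933406J09Rik+ cluster 161 and 13.6 CPM, and for cycling cells 64.8 and 19.7 CPM. Nos2 was thus at least 2-fold lower in KD in 5 of 6 states, and these 5 calls were the same under the other seed. The exception was the Vcan+ monocyte-like state, where levels were low in both libraries, 11.1 CPM (7.16 to 16.3) and 12.6 CPM (9.05 to 17.1), and the ratio was 0.19 (-0.56 to 0.97).

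Acod1 and Ass1 were lower in KD in each of the 6 states, and under the other seed as well. For Acod1 the log2 ratios ran from -2.20 in cycling cells to -0.37 in the Cadm1+ 4933406J09Rik+ cluster, and 5 of 6 passed 2-fold. Of the 6 states compared, the inflammatory TAM-like state had the highest Acod1 in both libraries, 860 CPM (859.8) in Ctrl and 426 CPM in KD, detected in 60.8% and 37.4% of thinned cells (-1.01, and -0.54 under the other seed). The small sub-cluster led by the neutrophil genes Retnlg and S100a9, with 36 Ctrl and 124 KD cells, stood higher, at 1898 and 697 CPM. Vcan+ monocyte-like cells, which had little Nos2, had 328 CPM of Acod1 in Ctrl and 120 CPM (120.3) in KD. For Ass1 the ratios ran from -1.83 in the inflammatory state, with 194 CPM in Ctrl and 54.5 CPM in KD, to -0.83 in Vcan+ monocyte-like cells, with 55.3 and 31.1 CPM, and 4 of 6 passed 2-fold. In the inflammatory state the ratio was -0.75 under the other seed. The Hspa1a+ Ly6i+ cluster, at 88.0 CPM, had the highest Ass1 level of KD macrophages among these states.

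Arg1 followed another order. Its highest level was in Ltc4s+ Pf4+ macrophage-like cells, where 417 KD cells had 1364 CPM (1324 to 1404), with Arg1 detected in 55.6% of thinned cells, while only 16 Ctrl cells fell in this state, with 1499 CPM (1276 to 1750). The state held 34.6% of the Arg1 UMIs of KD macrophages and 3.09% of those of Ctrl macrophages. Among the 6 states compared, Arg1 was higher in KD in 5, with log2 ratios of 2.81 in Vcan+ monocyte-like cells (3.54 and 24.9 CPM), 2.69 in cycling cells (71.5 and 461 CPM), 1.41 in C1q-high TAM-like cells (229 and 606 CPM; 0.66 under the other seed, under 2-fold) and 0.93 in the Cadm1+ 4933406J09Rik+ cluster (65.4 and 125 CPM). In the inflammatory state it was 341.5 CPM in Ctrl and 751 CPM in KD (1.14), but -0.43 under the other seed, so its direction there depended on the seed. In the Hspa1a+ Ly6i+ cluster Arg1 was 276 CPM in Ctrl and 242 CPM in KD (-0.19, -0.29 to -0.08), and the joined cluster of the other seed had 0.66. The ratio in Vcan+ monocyte-like cells rested on 8 UMIs in Ctrl and 81 in KD. Both levels lay below those of B cells (11.6 and 30.6 CPM), so this ratio is not read apart from background.

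Slc7a2 was higher in KD in all 6 states, 3 of them by 2-fold, and the 6 directions were the same under the other seed. The 2-fold calls in C1q-high (1.02) and cycling cells (1.16) were lost under that seed (0.94 and 0.87). The call in Vcan+ monocyte-like cells (2.62) remained, but it rested on 7 UMIs in Ctrl and 62 in KD (19.1 CPM). B cells moved in the same direction, with 0 Slc7a2 UMIs in Ctrl and 21 in KD (7.74 CPM). The part of background in this ratio was not tested. Slc7a2 was 77.0 and 156 CPM in C1q-high TAM-like cells and 46.5 and 82.9 CPM in the Hspa1a+ Ly6i+ cluster. In the inflammatory state, where it was highest apart from the 16 Ctrl cells of the Ltc4s+ Pf4+ state, it stood at 203 CPM (Ctrl) and 260.2 CPM (KD) (0.36, 0.20 to 0.51). Arg2 was within 2-fold in each state and went in both directions, from -0.35 in the Hspa1a+ Ly6i+ cluster to 0.60 in cycling cells. Of the 6 states, Arg2 was highest in the inflammatory state (107 and 97.2 CPM) and in Vcan+ monocyte-like cells (90.7 and 86.4 CPM), where the intervals of the libraries overlapped. The Retnlg+ S100a9+ sub-cluster again stood higher, at 197 and 257 CPM. Il4i1 had enough UMIs only in the inflammatory state, at 5.26 CPM in Ctrl and 14.6 CPM in KD (1.47, and -0.22 under the other seed).

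**Figure D3:**
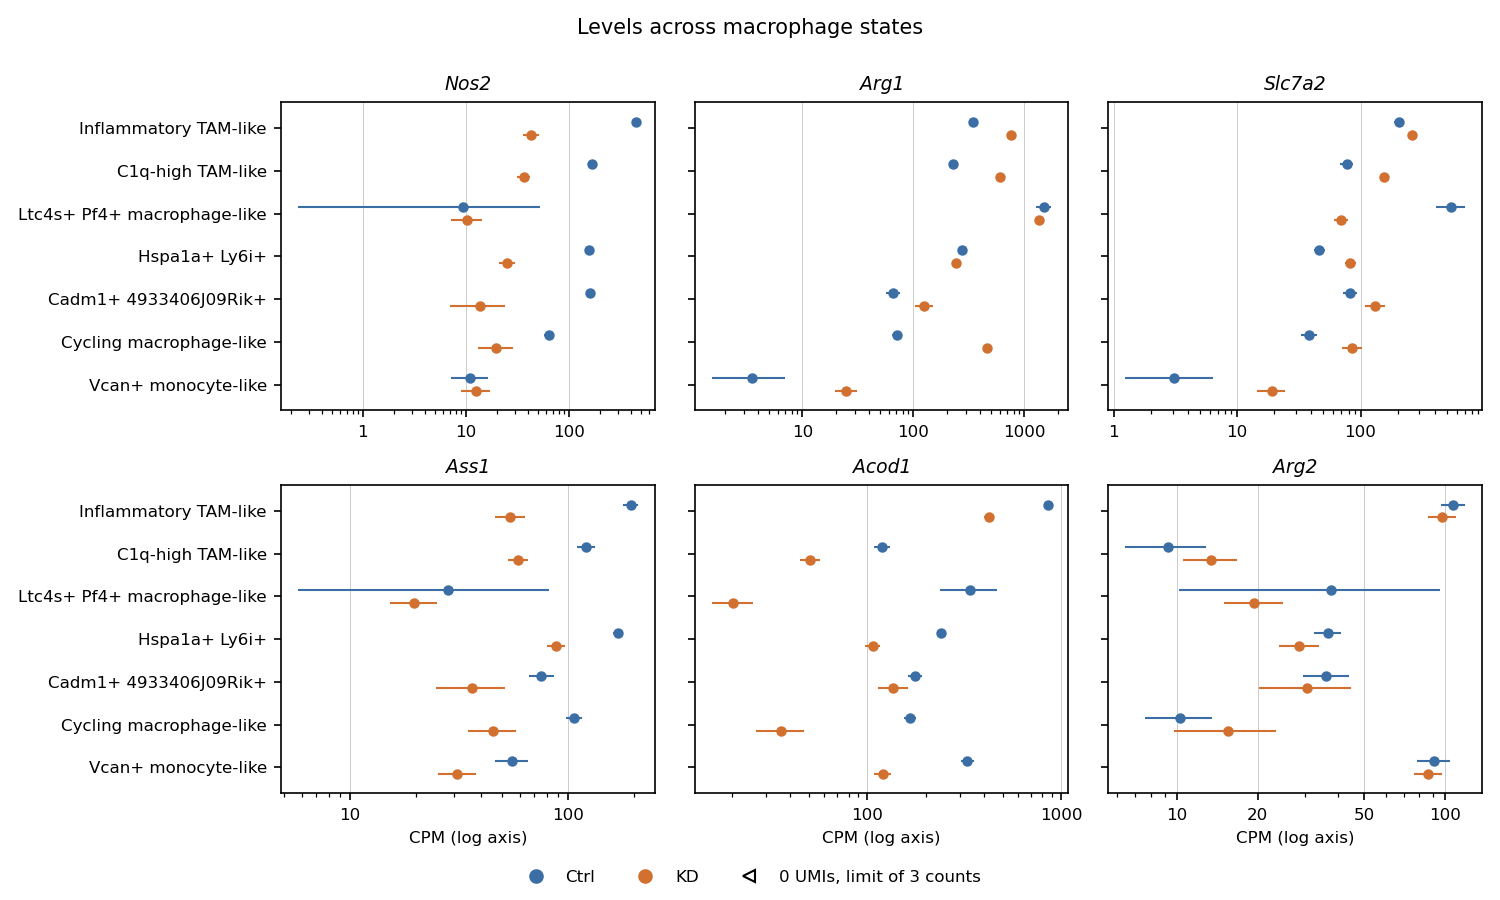
Level of 6 genes (CPM, log axis) in 7 macrophage states of the Ctrl (blue) and KD (orange) libraries, with 95% Poisson intervals. Ctrl holds 16 cells in the Ltc4s+ Pf4+ state. Nos2 lies at 447 CPM in inflammatory TAM-like cells of Ctrl and at 43.4 CPM in those of KD, and Arg1 is highest in the Ltc4s+ Pf4+ state.

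Nos2 and Arg1 were not divided between separate cells. Among thinned Ctrl macrophages with a Nos2 UMI, 20.6% (17.2 to 24.2) had an Arg1 UMI, against 9.32% (8.35 to 10.4) of those without. In KD the shares were 43.5% (31.6 to 56.0) of only 69 Nos2+ cells and 22.6% (21.1 to 24.2) of the others. Slc7a2 lay with both. It was found in 15.6% of Nos2+ and 4.42% of other Ctrl macrophages, in 33.3% and 8.66% in KD, and in 13.6% of Arg1+ and 5.07% of other Ctrl macrophages, and in 18.8% and 6.36% in KD. Acod1 was detected in 42.4% of Nos2+ and 24.0% of other Ctrl macrophages, and in 29.0% and 13.7% in KD. Between Arg1 and Acod1 the shares lay closer than between Nos2 and Acod1. In Ctrl, Acod1 was found in 31.8% (27.4 to 36.5) of Arg1+ and 26.0% (24.5 to 27.5) of other macrophages. In KD the shares were 12.2% (9.84 to 14.9) and 14.6% (13.2 to 16.1), in the other direction. The intervals overlapped, in Ctrl only just, which does not show that the shares were equal. Cells of all states were pooled here, so states that share genes are part of each value, and doublets of 2 macrophages were not separated.

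**Figure D4:**
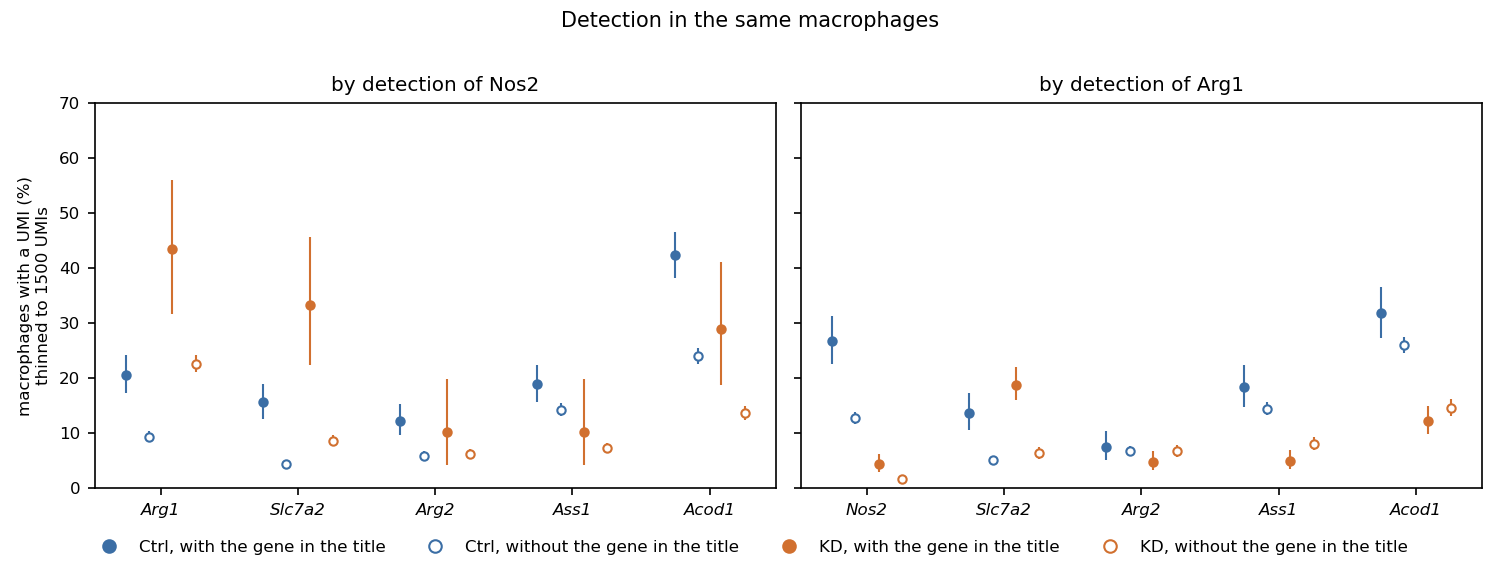
Share of thinned macrophages (percent, with 95% Clopper-Pearson intervals) with a UMI of each gene on the horizontal axis, among cells with (filled) and without (open) a UMI of Nos2 (left) or Arg1 (right), in Ctrl (blue) and KD (orange). Arg1 lies at 20.6% in Nos2+ and 9.32% in other Ctrl macrophages.

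In granulocytes, 4 members had enough UMIs. Acod1 was at least 2-fold lower in KD and Arg1 at least 2-fold higher, against 7.12% of 7192 genes that were at least 2-fold lower and 7.23% that were at least 2-fold higher. The median log2 ratio was 0.48 over the 4 members and 0.13 over all genes. There were 780 granulocytes in Ctrl and 2219 in KD, at medians of 2149 and 2812 UMIs per cell, and different states made up most of each. Interferon neutrophil-like cells were 56.3% of Ctrl and 5.81% of KD granulocytes. KD granulocytes were instead mostly an unnamed cluster led by Arf2 and Saa3 (10% of Ctrl and 34.1% of KD) and mature neutrophil-like cells (2.31% and 27.8%).

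Acod1 reached its highest levels of any class in these cells. Ctrl granulocytes had 10481 UMIs, 5698 CPM (5590 to 5808), and KD granulocytes 14974 UMIs, 2067 CPM (2034 to 2100). The KD level was 2.76-fold lower, with a log2 ratio of -1.46 (-1.50 to -1.43). Thinned detection was 96.6% in Ctrl and 76.6% in KD. Acod1 was lower in KD in all 6 granulocyte states, from 7078 and 4554 CPM in interferon neutrophil-like cells to 1726 and 402 CPM in immature neutrophil-like cells. In the 3 states with at least 50 cells in each library the ratios lay between -0.96 and -0.64, each under 2-fold. With KD weighted to the Ctrl states the class ratio was -0.77, so the 2-fold call did not hold at equal state composition.

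Over whole libraries this difference could not be seen. All filtered cells together had 20102 Acod1 UMIs in Ctrl and 20065 in KD, 313 and 325 CPM (log2 ratio 0.06, 0.03 to 0.08), where KD had lower levels in macrophages and granulocytes and more granulocytes. Arg2 was the reverse case. Over all filtered cells it stood at 41.6 CPM (Ctrl) and 111 CPM (KD) (1.42, 1.36 to 1.49), but within granulocytes it had 1261 UMIs and 686 CPM in Ctrl and 5155 UMIs and 711 CPM in KD (0.05, -0.04 to 0.14). Arg2 was found in 55.2% of Ctrl and 60.01% of KD granulocytes after thinning. Its highest level was in the cluster led by Fosb and Lypd6b, 1054 CPM in Ctrl and 1039 CPM in KD, and its lowest in immature neutrophil-like cells, 449 and 329.6 CPM.

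Nos2 in granulocytes ran against macrophages. It had 75 UMIs and 40.8 CPM (32.1 to 51.1) in Ctrl, and 554 UMIs and 76.5 CPM (70.2 to 83.1) in KD, a log2 ratio of 0.91 (0.56 to 1.27), under 2-fold, which was 1.53 with KD weighted to the Ctrl states and 0.46 without the Arf2+ Saa3+ and mature clusters, over 90% of whose cells came from KD. Thinned detection was 4.27% in Ctrl and 6.82% in KD, against 0.483% and 0.134% in T cells and 0.810% and 0.489% in B cells. Granulocytes held 1.53% of all Nos2 UMIs of the Ctrl library and 42.7% of those of the KD library, where their level was above that of KD macrophages (26.9 CPM, 24.8 to 29.0). Mature neutrophil-like cells held 314 of the 554 KD UMIs, at 128 CPM (114 to 143), and Nos2 was among the leading genes of this cluster although it took no part in the clustering. The cluster had 18 Ctrl cells with 2 Nos2 UMIs. Interferon neutrophil-like cells, 439 in Ctrl and 129 in KD, had 54.9 CPM (40.7 to 72.3) in Ctrl and 187 CPM (143 to 240.0) in KD. Immature neutrophil-like cells had 50.4 and 50.2 CPM. The summed level of 14 macrophage markers in granulocytes was 1879 CPM in Ctrl and 2092 CPM in KD.

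Arg1 in granulocytes was near the background, with 7 UMIs (3.81 CPM) in Ctrl and 77 UMIs (10.6 CPM) in KD. In thinned cells it was detected in 0.834% (0.487 to 1.33) of KD granulocytes and 0.601% (0.275 to 1.14) of KD T cells, so its ratio of 1.48 (0.37 to 2.84) is not read as expression. The ratio was 3.52 at clustering resolution 1.0, where a cluster led by Pf4 and Arg1, with 27 Ctrl and 152 KD cells, was named granulocytes. Slc7a2, Ass1, Ido1 and Il4i1 had between 0 and 13 UMIs per library there.

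**Figure D5:**
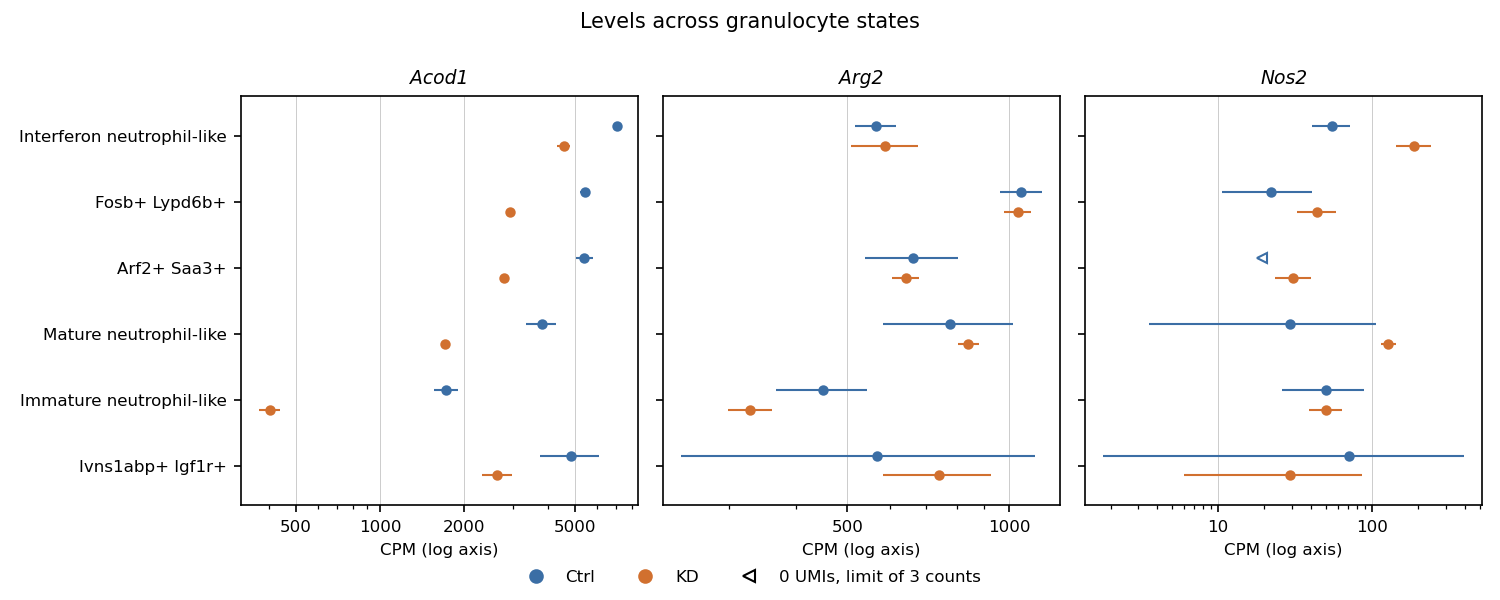
Level of Acod1, Arg2 and Nos2 (CPM, log axis) in 6 granulocyte states of the Ctrl (blue) and KD (orange) libraries, with 95% Poisson intervals; the open triangle marks the limit of 3 counts where no UMI was found. Ctrl holds 18 mature neutrophil-like and 22 Ivns1abp+ Igf1r+ cells. Acod1 lies lower in KD in each state, and Arg2 intervals overlap in all states except the immature one.

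In cDCs, 5 members had enough UMIs and 0 of them differed by 2-fold in either direction, where 1.1% of 8989 genes were at least 2-fold lower and 1.79% at least 2-fold higher. The median log2 ratio was 0.31 over the 5 members and -0.01 over all genes. No p-value stands behind these counts, as in the other classes. Ass1 was the main member, with 308 UMIs and 112 CPM in 385 Ctrl cells and 387 UMIs and 73.8 CPM in 582 KD cells (-0.61, -0.83 to -0.39). It was lower in KD in both cDC2-like cells (134 and 80.7 CPM; -0.73, -1.01 to -0.45) and cDC1-like cells (62.1 and 37.1 CPM), where the interval reached 0 (-0.74, -1.48 to 0.01). Cycling DC-like cells had 63.1 and 82.9 CPM, with overlapping intervals.

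Il4i1 had its highest level in a small population, though most of its UMIs lay in other cells. Mature DC-like cells, which carry Ccr7 and Fscn1, numbered 27 in Ctrl and 34 in KD, yet held 22.5% and 33.0% of all Il4i1 UMIs of their libraries. They had 39 UMIs, or 249.5 CPM (177 to 341), in Ctrl and 125 UMIs, or 495 CPM (412 to 589.9), in KD, and 77.8% and 76.5% of them had an Il4i1 UMI. Il4i1 was among the leading genes of this cluster although it took no part in the clustering. The same cells had 211 CPM (145 to 297) of Ass1 in Ctrl and 83.2 CPM (51.5 to 127) in KD. In cDC2-like cells Il4i1 was 15.7 and 12.1 CPM.

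Other members were at low levels in cDCs. Acod1 had 65 UMIs (23.7 CPM) in Ctrl and 205 UMIs (39.1 CPM) in KD (0.72, 0.31 to 1.15), but it was detected in 2.79% and 1.92% of thinned cells, and the ratio was -0.46 without likely doublets and -1.22 with classes taken from markers of single cells. The granulocyte markers moved with it, and all 12 were detected in KD cDCs. Nos2 had 33 UMIs in Ctrl and 7 in KD cDCs, Arg1 24 and 35, and Arg2 22 and 54. In plasmacytoid dendritic cells (pDCs), 82 in Ctrl and 73 in KD, Nos2 had 0 UMIs in both libraries, which allows up to 6.12 and 6.44 CPM, and Il4i1 had 1 and 9 UMIs.

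Few Ido1 UMIs came from dendritic cells. Of its UMIs, 26 of 47 in Ctrl came from tumor-like or fibroblast-like cells, at 12.8 CPM (8.37 to 18.8), and 5 of 14 in KD, at 3.83 CPM. An Ido1 UMI was found in 11.8% of 161 such cells in Ctrl and 4.21% of 95 in KD. cDCs had 1 and 2 Ido1 UMIs, mature DC-like cells 0 and 2, and granulocytes 0 in both libraries, which allows up to 1.63 and 0.414 CPM in granulocytes. The 2 UMIs of KD mature DC-like cells came to 7.92 CPM, so their level could not be ranked against that of tumor-like cells.

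The other genes of the pathways were mostly within 2-fold in macrophages, as were most genes there. Of all genes, 2.87% were at least 2-fold lower and 2.6% at least 2-fold higher, so lists this short with none or 1 past 2-fold are near that share. None of 7 tested genes of arginine uptake and the urea cycle, of 15 of the ornithine, polyamine and proline branch, of 6 nitric oxide synthase and cofactor genes, of 4 kynurenine genes and of 6 tryptophan transport and aryl hydrocarbon receptor genes differed by 2-fold, with list medians between -0.33 and 0.29. Of 16 genes of itaconate supply and breakdown, Idh1, cytosolic isocitrate dehydrogenase, was higher, with 34.7 CPM (Ctrl) and 79.3 CPM (KD). Of 12 genes of interferon-gamma and NF-kB input, 3 were at least 2-fold lower, against 2.87% of all genes, and 0 higher. Among them were Irf1, an interferon-induced transcription factor (349 and 161 CPM), and Socs1, an interferon-induced brake on cytokine signaling (102 and 34.3 CPM). The list did not move as one. The receptor gene Ifngr1 was higher in KD, just under 2-fold (153 and 299 CPM, log2 ratio 0.97), while Cd40 and Irf8 had -0.97 and -0.91. Jak1, Jak2, Ifngr2, Rela, Nfkb1 and Nfkbia lay between -0.36 and 0.08. Of 13 genes listed under IL-4, IL-10 and STAT input, 0 were lower and 3 higher, against 2.6% of all genes: Chil3 (82.5 and 591 CPM), Mrc1 (59.5 and 161 CPM) and Retnla (2 and 191 UMIs). None of these 3 is a cytokine receptor or STAT gene. The log2 ratios of those genes were -0.45 for Il4ra, 0.46 for Il13ra1, -0.23 for Il10ra, -0.13 for Il10rb, 0.01 for Stat6 and -0.28 for Stat3.

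In granulocytes, 5 of 11 tested genes of the interferon-gamma and NF-kB list were at least 2-fold lower in KD, against 7.12% of all genes, while the receptor genes Ifngr1 and Ifngr2 had log2 ratios of 0.69 and 0.62. Irf1 was 884 CPM in Ctrl and 210 CPM (209.8) in KD, and Socs1 111 and 16.98 CPM, and Irf8 and Nfkb1 were also among them. In cDCs 1 of 12 was lower, against 1.1% of all genes, which was Socs1, at 127 and 29.6 CPM. Itaconate supply genes in granulocytes were higher where they differed by 2-fold (Acly, Suclg1 and Idh1, 3 of 10, against 7.23% of all genes), from 10 to 27 UMIs each in Ctrl. Oaz2, an antizyme of polyamine control, was higher there, and Wars1, which charges tRNA with tryptophan, was lower. The members' place in these lists was not tested.

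The genes most like each member were sought over 44 sums of cells, 1 per state and library with at least 50 cells. They are the highest correlations among all genes searched, so high values come in part from that choice. Most like Arg2 was Csf3r (Pearson r 0.96 of log2(CPM + 1)), then Trem1 and Fpr2. Acod1 was most like Cxcl2 (0.94), Hcar2 and Clec4d, Arg1 like Pf4 (0.88), Trem2 and C1qb, and Slc7a2 like C3ar1 (0.92), Pdlim4 and Ccl7. Ass1 was most like Magohb (0.88), Ido1 like Igf2bp1 (0.86), Nos2 like Fcgr4 (0.78) and Il4i1 like Dipk1a (0.66). Ido1 had only 47 UMIs in Ctrl and 14 in KD over all filtered cells. Among the members, Arg2 and Acod1 had the highest correlation (0.92), followed by Arg1 and Slc7a2 (0.87), while Nos2 and Arg1 had 0.56. The points share 2 libraries and their depth, and cell types with zero counts weigh on each value, so these figures only describe which genes were seen in the same states.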

How the data were processed

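CD45+ cells of liver metastases were profiled in 2 single-cell libraries (Ctrl and KD). The authors deposited UMI counts for each gene in each cell barcode, made with Cell Ranger 7.1.0 on GRCm39 per the submitters' processing notes and left unnormalized. Groups followed the hairpin label. The study's cell filter was applied (no fewer than 200 and no more than 6000 genes, a UMI total up to 30000, a mitochondrial share up to 10%). Cells were clustered in Seurat 5.3.0 (R 4.3.3) with 2000 variable genes, 20 components and resolution 0.5, without integration. Macrophages, granulocytes and dendritic cells were re-clustered. The sub-clusters changed when the kernel of the numerical library was not fixed, so OpenBLAS was held to its Haswell kernel and 1 thread.

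A cluster was named from marker lists when at least 3 markers passed a log2 fold of 1 (0.5 in states) in at least 10% of cells and its 10 leading genes held no more genes of another list. For states, at least 1 own marker had also to lead, a rule added after clusters led by T or B cell genes had been seen. Clusters with a median under 33.3% of their library's UMIs and no leading marker stayed unnamed. The members and lists were chosen with earlier results of these data known. All 8 members are named, and of the pathway lists those that differed by 2-fold in macrophages, except 1 gene that is not reported here. Pathway genes named in granulocytes and cDCs, and those under 2-fold in macrophages, were picked with their values known. For each member the 3 genes of most like pattern were found among genes with at least 200 UMIs, without mitochondrial, ribosomal and unnamed genes, and some are printed by name only.

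UMIs were summed per class or state and scaled to CPM. Poisson, Clopper-Pearson and conditional binomial 95% intervals are exact and cover counting error only. A count of 0 allows up to 3 counts. No test was possible at 1 library a group. Members and genes with at least 50 UMIs in a class counted as differing at 2-fold. Shares of cells used cells thinned to 1500 UMIs, and 745 Ctrl and 593 KD cells were too shallow for this. Likely doublets (Scrublet in scanpy, 0.8% per 1000 cells, 771 Ctrl and 830 KD cells) were kept in the main values and left out as an alternative. The ratio was tested on simulated data for macrophages, where 95.7% of the intervals of 13368 genes held the true value and all 200 changed genes had the right direction. The simulated counts were Poisson, as the intervals assume, so this checks the computation only. Clumping of UMIs in single cells and differences between mice were not simulated.

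The alternatives were TMM factors (edgeR 4.0.16), median-of-ratios size factors (DESeq2 1.42.0), means of per-cell CPM, thinned cells, a stricter filter (at least 500 genes, at most 5% mitochondrial), no likely doublets, classes from single cells, resolution 1.0, no sub-clusters over 90% from 1 library, KD weighted to Ctrl states and no UMI minimum. Leaving out macrophage sub-clusters led by genes of other classes and clustering with another random seed were added after the data had been seen.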

Additional observations from a re-analysis of the deposited data

Results flagged for a closer look

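Nos2 had opposite directions in 2 cell classes. It was lower in KD macrophages (log2 ratio -2.64) and higher in KD granulocytes (0.91), a gap of 3.54 log2 units. Both intervals for counting error exclude 0. The difference between the classes was not tested, since each group has 1 library.

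Acod1 was lower in KD in macrophages (-1.08) and granulocytes (-1.46) and higher in cDCs (0.72), so that the gaps were 1.80 and 2.19 log2 units. These differences were not tested. In cDCs the value had the other sign without likely doublets (-0.46) and with classes from single cells (-1.22), and the 12 granulocyte markers summed to 107 CPM in Ctrl and 651 CPM in KD cDCs. Their part in the result was not tested.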

How the results depend on the processing

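No paired analysis was possible because each group has 1 library, and no library could be left out. In macrophages, the count of members at least 2-fold lower in KD was 3 (Nos2, Ass1, Acod1) and lay between 2 and 4 under every alternative. The count at least 2-fold higher was 2 (Arg1, Il4i1), 1 under means of per-cell CPM, 1 in thinned cells, where Il4i1 had too few UMIs, and 1 with KD weighted to Ctrl states, where Arg1 was under 2-fold. In granulocytes, the count lower was 1 (Acod1), 2 with classes from single cells, 0 with KD weighted to Ctrl states and 3 with no UMI minimum. The count higher was 1 (Arg1), 0 in thinned cells, 0 with classes from single cells, 0 without sub-clusters over 90% from 1 library and 2 with KD weighted to Ctrl states, which added Nos2. In cDCs, 0 were lower, but 1 with classes from single cells (Acod1) and 1 with no UMI minimum (Nos2), and 0 were higher under every alternative. The weighted values set KD to the Ctrl state composition, and thinned cells had fewer UMIs. The cause of each change was not tested.

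Nos2 in macrophages lay between -2.96 and -2.51 over its 12 alternatives, Ass1 between -1.31 and -1.12, Acod1 between -1.31 and -0.89, Arg1 between 0.95 and 1.62 and Slc7a2 between 0.58 and 0.77. Nos2 in granulocytes lay between 0.46 and 1.53, with 0.46 without sub-clusters over 90% from 1 library, and Acod1 there between -1.60 and -0.77. Arg1 there lay between 0.75 and 3.52, the latter at resolution 1.0. Arg2 changed sign in 6 of 12 alternatives in macrophages and in 3 of 11 in granulocytes. No member at least 2-fold apart in its class changed sign. The state values depend more on the clustering. Under another random seed, chosen after seeing the data, 5 of 45 changed sign, which were Arg1 in the inflammatory TAM-like state (1.14 and -0.43) and in the Hspa1a+ Ly6i+ cluster (-0.19 and 0.66), Arg2 in both and Il4i1 in the inflammatory state, while Nos2, Acod1, Ass1 and Slc7a2 kept their direction in each of the 6 macrophage states, 2 of which were matched to 1 cluster. Depth limits Ido1 in every class and Il4i1 outside mature DC-like cells and B cells, and 1 library per group limits every comparison.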
